A study of Mus musculus with 6 samples.

Results

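Nuclear receptors are transcription factors that bind DNA through a zinc finger domain and, in many members, a hormone, vitamin, sterol or fatty acid ligand through a second domain. Retinoic acid, thyroid hormone, vitamin D, liver X and PPAR receptors bind DNA as partners of a retinoid X receptor, steroid receptors mostly bind as pairs of themselves, and REV-ERB receptors repress clock genes. In marrow these receptors are known for roles in granulocyte maturation (retinoic acid receptors), red cell formation (thyroid hormone and glucocorticoid receptors), macrophage cholesterol export (liver X receptors) and bone mineral (the vitamin D receptor). The genes described here are 44 named nuclear receptor genes other than Pparg and Rxra, taken by symbol from a table of 22838 genes, and all 44 were found in it.

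Bone marrow RNA from tibia and femur was compared between 3 Cbx2-/- mice, with a mean body weight of 4.0 g, and 3 wild-type mice, with a mean of 12.3 g, per the labels. All 6 animals were 3 weeks old and of mixed strain, labelled 129/C57BL/6. The product of the mutated gene, CBX2, belongs to a Polycomb complex that keeps developmental genes silent, and the labels give neither the structure of the allele nor the sex or the hour of sampling. The series title names bone-forming and fat cell differentiation as its subject. Levels are FPKM, which divides reads by gene length and library total, so they can be set side by side between genes. Nothing in the labels describes the mice as litters or pairs.

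Whole-library facts that touch the receptors are few. Cbx2 itself was at 2.11, 1.87 and 1.88 FPKM in the Cbx2-/- libraries and at 2.90, 3.83 and 2.75 FPKM in the wild-type libraries. The libraries held 11711 to 12106 genes at 1 FPKM or more, and correlations of log2 values were 0.946 to 0.987 within Cbx2-/- marrow, 0.986 to 0.989 within wild-type marrow and 0.91 to 0.953 between them. Marker lists of other cells moved with genotype: 10 of 10 B cell precursor, 8 of 10 erythroid and 6 of 10 osteoblast markers fell. The markers that rose were 8 of 9 adipocyte, 6 of 10 endothelial, 5 of 10 macrophage, 5 of 10 marrow stroma and 3 of 10 neutrophil markers. Of all tested genes, 8.8% rose and 8.31% fell. Rag1 and Rag2 (B cell precursor) reached 1 FPKM in wild-type libraries alone, and Plin4 and Adig (adipocyte) in Cbx2-/- libraries alone. Genes were tested only at 1 FPKM or more in at least 3 of the 6 libraries, so the groups of these markers had to differ. Summed neutrophil markers were 55402 to 82776 FPKM in Cbx2-/- libraries and 37255 to 42362 FPKM in wild-type libraries, and summed endothelial markers were 228 to 259.6 and 121 to 128 FPKM. Skeletal muscle markers summed to 424 and 486 FPKM in Cbx2-/- replicates 1 and 2, to 13.6 FPKM in Cbx2-/- replicate 3 and to 23.3 to 35.4 FPKM in wild-type libraries. The part of these cell types in any receptor difference was not tested, and in bulk RNA fewer cells of a type and less RNA per cell cannot be told apart.

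Of the 44 receptor genes, 19 were expressed, meaning 1 FPKM or more in at least 3 of the 6 libraries, which is 43.2% of them against 52.6% of all genes in the table. These 19 were tested in a fit across all 12006 genes that passed the same filter. Rara and Thra rose, Nr4a2 fell, and the other 16 did not pass the threshold of 0.05 on the limma adjusted p. The 3 calls are 15.8% of the 19 tested receptors, where 17.1% of all tested genes were called (8.8% higher and 8.31% lower), so the share lies near the background and is no result about the family. Nr4a2 met the filter through its wild-type libraries alone, so its groups had to differ. The median difference of the tested receptors was 0.17 on the log2 scale, beside 0.02 over all tested genes, with 13 differences above 0 and 6 below.

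The calls moved with single libraries. Summed Y-linked transcripts were 31.1 FPKM in replicate 1 of each group and at most 0.087 FPKM in the other libraries. Leaving out either replicate 1 thus also unbalanced sex between the groups. Without wild-type replicate 1, 0 receptors rose and 0 fell, where 7.07% of all tested genes were called in that fit. Without wild-type replicate 2, 1 rose and 0 fell (7.24% of all genes called), and without wild-type replicate 3, 1 rose and 1 fell (7.57%). Without Cbx2-/- replicate 1, 3 rose and 0 fell (9.11%), without replicate 2 the counts stayed at 2 and 1 (16.9%), and without replicate 3, 2 rose and 2 fell (31.6%). With Cbx2-/- replicates 1 and 2, those with muscle transcripts, left out, 7 rose and 0 fell, in a fit that called 39.7% of all genes and assumes that the lone Cbx2-/- library varies like the others.

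By level, the liver X receptor gene Nr1h2 and the retinoid X receptor gene Rxrb led the family. Nr1h2 averaged 55.4 FPKM over the 6 libraries, rank 1408 of 22838 genes, and Rxrb averaged 35.3 FPKM. Each lay above the next gene in all 6 libraries with no overlap of ranges. Below them, Thra (17.4), Esrra (14.3), Nr2f6 (13.1), Rarg (12.7), Rara (11.9), Nr3c1 (9.73), Vdr (8.85), Nr1h3 (8.81), Nr1d1 (7.25), Ppard (6.2) and Nr4a1 (5.62 FPKM) formed a run in which each gene's range overlapped that of its neighbour. Nr1d2 (3.17) and Nr2c2 (2.74 FPKM) came next and overlapped each other. Nr2c1 (1.73), below Nr2c2 in every library, Nr2f2 (1.36), Esr1 (1.15) and Nr4a2 (1.12 FPKM) closed the list.

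**Figure D1:**
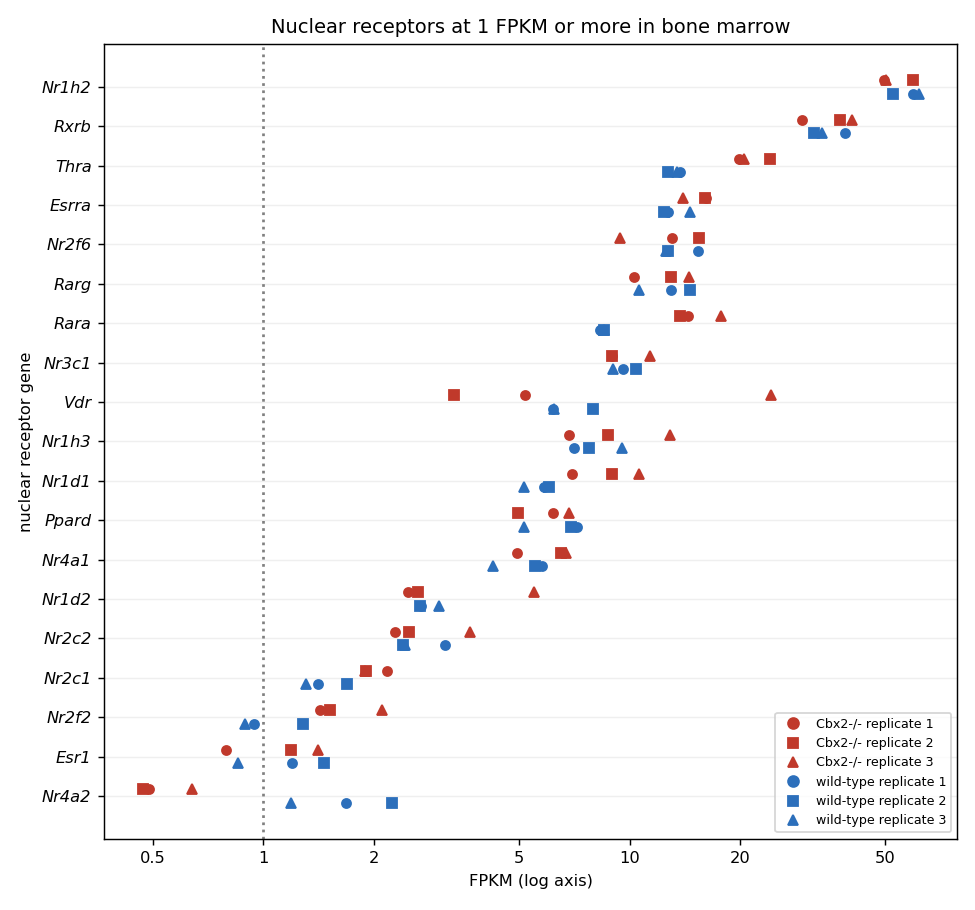
FPKM of the 19 expressed receptor genes on a log axis, 1 point per library, with Cbx2-/- libraries in red above wild-type libraries in blue and a dotted line at 1 FPKM. Nr1h2 and Rxrb stand apart at the top, Rara and Thra show separate groups, and 1 Cbx2-/- library stands far right for Vdr.

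Rara encodes retinoic acid receptor alpha, a receptor that acts in granulocyte maturation. It was at 14.4, 13.7 and 17.8 FPKM in the Cbx2-/- libraries and at 8.28, 8.51 and 8.54 FPKM in the wild-type libraries. Every Cbx2-/- library lay above every wild-type library, and the wild-type values were close together. The means were 15.3 ± 2.22 and 8.44 ± 0.142 FPKM (SD, n = 3 each), a 1.81-fold rise, and the difference was 0.78 ± 0.14 (log2, SE, limma adjusted p = 0.00953). The call was lost without wild-type replicate 1 (limma adjusted p = 0.0515) and when haemoglobin genes were left out and the rest rescaled, where the difference was 0.77 ± 0.23 (log2, SE, limma adjusted p = 0.0646).

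The other retinoic acid receptors did not pass. Rarg, which encodes the gamma receptor, was at 10.3, 13.0 and 14.5 FPKM in Cbx2-/- marrow and at 13.0, 14.6 and 10.6 FPKM in wild-type marrow. Its groups overlapped, and the difference of -0.01 had a 95% interval of -0.42 to 0.39 (log2). Rarb, which is itself a direct retinoic acid target, was under the filter, at 0.383, 0.185 and 0.402 FPKM in Cbx2-/- libraries and at 0.332, 0.296 and 0.245 FPKM in wild-type libraries. The ratio of Rara to Rarg was 1.39, 1.05 and 1.23 in the Cbx2-/- libraries and 0.639, 0.583 and 0.806 in the wild-type libraries, so the more abundant of both genes was Rara in every Cbx2-/- library and Rarg in every wild-type library. An exact permutation test of this ratio, two-sided, reached p = 0.1, the lowest value available with 3 libraries a group (0.175 adjusted over the 7 receptor ratios computed). The ratio reuses the Rara values already called higher, so it is no separate result.

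Thra encodes thyroid hormone receptor alpha, which is needed for the growth of bone and for red cell formation. It was at 19.9, 24.2 and 20.6 FPKM in the Cbx2-/- libraries and at 13.7, 12.7 and 13.5 FPKM in the wild-type libraries. The groups did not overlap. The means of 21.5 ± 2.3 and 13.3 ± 0.557 FPKM (SD, n = 3 each) differed 1.62-fold, by 0.65 ± 0.14 (log2, SE, limma adjusted p = 0.016). The call was lost in each fit that left out 1 wild-type library (limma adjusted p = 0.067, 0.0804 and 0.0648 without wild-type replicates 1, 2 and 3). Thrb, the beta receptor gene, stood under the filter at 0.119, 0.163 and 0.197 FPKM in Cbx2-/- marrow and at 0.226, 0.218 and 0.152 FPKM in wild-type marrow, with overlapping groups.

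Nr4a2 encodes an orphan receptor of the NR4A group, whose genes are switched on within minutes of many stimuli and act without a known hormone. It was at 0.486, 0.469 and 0.639 FPKM in the Cbx2-/- libraries and at 1.68, 2.25 and 1.19 FPKM in the wild-type libraries. All Cbx2-/- values were low and lay below the lowest wild-type value. The means were 0.531 ± 0.0935 and 1.71 ± 0.532 FPKM (SD, n = 3 each), 3.21-fold lower, and the log2(FPKM + 1) value fell by 0.80 ± 0.18 (SE, limma adjusted p = 0.0194), a scale that understates changes at such levels. With no filter on low values the limma adjusted p was 0.0284. The call was lost without Cbx2-/- replicate 1 (limma adjusted p = 0.0678), wild-type replicate 1 (0.0743) or wild-type replicate 2 (0.0741), and with Cbx2-/- replicates 1 and 2 left out (0.0527).

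The relatives of Nr4a2 were not called. Nr4a1, which encodes Nur77, was at 4.94, 6.51 and 6.72 FPKM in Cbx2-/- marrow and at 5.76, 5.52 and 4.25 FPKM in wild-type marrow, a difference of 0.19 with a 95% interval of -0.18 to 0.57 (log2). The groups overlapped. Nr4a3 had 0.162 FPKM in Cbx2-/- replicate 1 and 1.38 FPKM in replicate 3, was listed at 0 in replicate 2, and was at most 0.137 FPKM in wild-type libraries. The ratio of Nr4a1 to Nr4a2 was 10.2, 13.9 and 10.5 in Cbx2-/- libraries and 3.42, 2.45 and 3.58 in wild-type libraries (exact permutation test, two-sided, p = 0.1, adjusted 0.175), and it rests on Nr4a2, whose groups had to differ. Of the 7 receptor ratios, 3 had overlapping groups: Nr1h2 to Nr1h3 and Nr2f2 to Nr2f1 (exact permutation p = 0.6 each) and Nr1d1 to Nr1d2 (exact permutation p = 0.3). The ratio of Thra to Thrb, a gene under the filter, was 167, 148 and 105 in Cbx2-/- libraries and 60.6, 58.2 and 89.1 in wild-type libraries (exact permutation test, two-sided, p = 0.1, adjusted 0.175). Each ratio without overlap holds a called gene: Rara, Thra, Nr4a2 or Rxra.

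**Figure D2:**
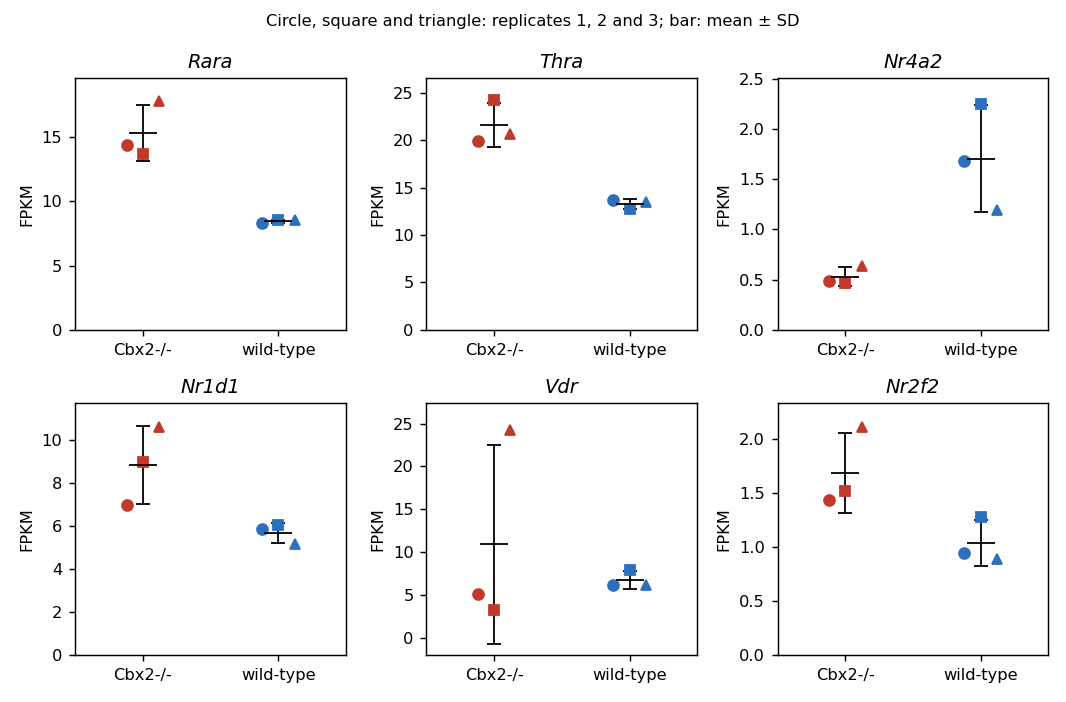
FPKM of 6 receptor genes in the 3 Cbx2-/- libraries (red, left) and the 3 wild-type libraries (blue, right), with the mean and SD as a bar. Rara, Thra, Nr1d1 and Nr2f2 are higher and Nr4a2 lower in every Cbx2-/- library, while Vdr is at 24.3 FPKM in Cbx2-/- replicate 3 and at 3.32 to 7.94 FPKM in the other 5 libraries.

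The start regions of receptor genes were read from RefSeq promoter sequences of build GRCm38.p6, the assembly of mm10, which span 250 bases before to 50 after a start and were found for 40 of the 44 genes. Thra was among the genes without one. CpG dinucleotides were counted because CpG-rich starts are where Polycomb complexes are known to bind. The 17 expressed receptors with a sequence held a median of 20 CpGs, against 14 in the 23 receptors that were not expressed, and the medians were 21 over the 9115 tested genes and 4 over the 7814 untested genes that had a sequence. The receptors that were not expressed thus had a higher median than untested genes with a sequence, as a description with no test. The called genes Rara and Nr4a2, which moved in opposite directions, and Nr1d1 are shown 5′ to 3′ with each CpG in capitals. Nr4a2 (chr2:57123954-57124253, minus strand) held 52 CpGs, second only to Nr2f6 with 53 among the 40. Rara (chr11:98937446-98937745, plus strand) held 20 and Nr1d1 (chr11:98775328-98775627, minus strand) held 9. The Rara window lies within the GENCODE span of Rara, which begins at 98927818. Its values therefore describe a start inside the gene and not the outermost start.
Rara: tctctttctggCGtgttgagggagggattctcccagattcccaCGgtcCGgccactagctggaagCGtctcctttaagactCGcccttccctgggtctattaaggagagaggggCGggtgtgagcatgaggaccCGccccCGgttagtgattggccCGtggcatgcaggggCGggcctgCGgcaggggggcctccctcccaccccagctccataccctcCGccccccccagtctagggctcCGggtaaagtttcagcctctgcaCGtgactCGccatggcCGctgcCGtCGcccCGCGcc
Nr4a2: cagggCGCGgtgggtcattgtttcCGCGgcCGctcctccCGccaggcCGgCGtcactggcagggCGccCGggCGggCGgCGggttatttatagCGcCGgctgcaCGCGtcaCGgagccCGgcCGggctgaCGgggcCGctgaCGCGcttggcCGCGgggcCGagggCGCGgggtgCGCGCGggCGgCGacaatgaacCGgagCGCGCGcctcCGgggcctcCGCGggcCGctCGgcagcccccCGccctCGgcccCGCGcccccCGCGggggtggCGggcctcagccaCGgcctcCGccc
Nr1d1: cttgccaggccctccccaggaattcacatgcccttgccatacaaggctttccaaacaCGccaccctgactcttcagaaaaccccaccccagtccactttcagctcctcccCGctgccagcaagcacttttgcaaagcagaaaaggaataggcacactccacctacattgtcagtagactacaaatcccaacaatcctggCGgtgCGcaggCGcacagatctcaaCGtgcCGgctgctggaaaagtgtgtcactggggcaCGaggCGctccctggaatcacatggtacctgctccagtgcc
The half-site that many nuclear receptors bind, AGGTCA, searched on both strands, was in none of these 3 windows. It was in 6 of the 40 receptor windows (15%), among them Rarg and Nr1d2, and in 16% of all 27025 windows in the RefSeq table.

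Nr1d1 and Nr1d2 encode REV-ERB alpha and REV-ERB beta, haem-binding repressors of the clock gene Arntl. Nr1d1 was at 6.96, 8.97 and 10.6 FPKM in the Cbx2-/- libraries and at 5.85, 6.03 and 5.15 FPKM in the wild-type libraries. The groups did not overlap, but the difference of 0.54 ± 0.16 (log2, SE) did not pass (limma adjusted p = 0.058). It passed without Cbx2-/- replicate 1 (limma adjusted p = 0.0432). Nr1d2 was at 2.48, 2.64 and 5.50 FPKM in Cbx2-/- marrow and at 2.70, 2.67 and 3.01 FPKM in wild-type marrow, so only Cbx2-/- replicate 3 stood apart. Its difference of 0.20 became -0.09 without that library.

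Among clock genes, Arntl, which encodes the activator BMAL1, fell 5.09-fold, with 2.19, 1.51 and 3.71 FPKM in Cbx2-/- libraries and 12.3, 13.4 and 12 FPKM in wild-type libraries. This difference of -2.01 ± 0.22 (log2, SE, limma adjusted p = 0.00163) passed in all 6 fits that left out 1 library. Per2 (2.15-fold), Per3 (1.98-fold) and Cry2 (1.6-fold), which encode repressors in the same loop, rose, with limma adjusted p of 0.0439, 0.0404 and 0.026. These rises were lost when haemoglobin genes were left out and the rest rescaled, without Cbx2-/- replicate 1 and without each wild-type library, and that of Per3 also without Cbx2-/- replicate 2. Of the 12 tested genes of the circadian list, 3 rose and 1 fell, where 8.8% of all tested genes rose and 8.31% fell. The median difference was 0.44, beside 0.02 over all tested genes. When Cbx2-/- replicate 1 or any wild-type library was left out, 0 rose and 1 fell. Those fits called 7.07% to 9.11% of all tested genes. Leaving out Cbx2-/- replicate 3 gave 5 higher and 1 lower, in a fit that called 31.6% of all tested genes. Per1, at 10.6, 13.7 and 27.8 FPKM in Cbx2-/- marrow and 12.5, 10.1 and 17 FPKM in wild-type marrow, and Nfil3, at 9.15, 10.1 and 16 and at 6.80, 7.55 and 7.20 FPKM, did not pass. Clock transcripts vary with the hour, which the labels do not state, so an hour that differed between groups cannot be told apart from genotype.

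Rora, the ROR alpha gene, whose product activates Arntl at the sites where REV-ERBs repress it, was under the filter. It was at 0.533, 0.483 and 0.880 FPKM in Cbx2-/- libraries and at 0.389, 0.235 and 0.424 FPKM in wild-type libraries, without overlap. Rorb was at most 0.035 FPKM.

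Thra, Nr1d1 and Rara lie within 234 kb of chromosome 11, a stretch looked at after their values were seen. In GENCODE vM21 (GRCm38), Thra spans 98740638 to 98769006 on the plus strand, Nr1d1 spans 98767932 to 98775333 on the minus strand, and Rara spans 98927818 to 98974942 on the plus strand. The ends of Thra and Nr1d1 overlap by 1075 bases on opposite strands, and whether the deposited quantification used strand is not stated in the labels, so reads in the overlap cannot be assigned with certainty. All 8 protein-coding genes in the stretch that the table holds were tested, of which 2 rose (Thra and Rara) and 1 fell. Thra and Rara set the ends of the stretch, so these 2 rises were fixed in advance. Of all tested genes, 8.8% rose and 8.31% fell. The fall was that of Rapgefl1, a guanine nucleotide exchange factor-like gene (limma adjusted p = 0.000343). It was at 0.285, 0.362 and 0.366 FPKM in Cbx2-/- libraries and at 3.39, 3.47 and 3.50 FPKM in wild-type libraries. Rapgefl1 met the filter through its wild-type libraries alone, so its groups had to differ. Cdc6, a DNA replication gene, was at 13.4, 20.5 and 5.4 FPKM in Cbx2-/- libraries and at 29.9, 29.3 and 29.2 FPKM in wild-type libraries, without overlap, and did not pass (-1.28, limma adjusted p = 0.0578). Msl1, Casc3 and Wipf2 had differences of 0.21, -0.05 and 0.01 (log2). The targeted gene Cbx2 lies about 20 Mb further along the same chromosome (119022962 to 119031270). Whether the groups differed in strain DNA here was not tested.

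Vdr encodes the vitamin D receptor, expressed in osteoblasts and in some blood cells. It was at 5.18, 3.32 and 24.3 FPKM in the Cbx2-/- libraries and at 6.19, 7.94 and 6.21 FPKM in the wild-type libraries. Cbx2-/- replicate 3 was the highest of all libraries, and the other Cbx2-/- libraries were the lowest. The difference of 0.18 ± 0.57 (log2, SE, limma adjusted p = 0.869) thus averaged opposite values: without Cbx2-/- replicate 3 it was -0.58 (limma adjusted p = 0.0411), and with Cbx2-/- replicates 1 and 2 left out it was 1.71 (limma adjusted p = 0.000539). Of the 10 osteoblast markers, 6 were highest among the Cbx2-/- libraries in replicate 3, as Vdr was, and 4 in replicate 2. The summed list was 662, 953 and 1071 FPKM in Cbx2-/- libraries and 7274, 10829 and 6573 FPKM in wild-type libraries, and its part in the Vdr values was not tested.

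Of the 10 vitamin D genes, 3 were tested. Bglap, the osteocalcin gene, also an osteoblast marker, was the 1 that fell, where 8.31% of all tested genes did. That count was the same in each fit that left out 1 library. Cyp24a1, the vitamin D breakdown enzyme that the receptor induces, and S100g were listed at 0 in every library. Tnfsf11, which encodes RANKL, did not pass, at 1.28, 1.76 and 5.10 FPKM in Cbx2-/- marrow and at 0.927, 2.99 and 2.80 FPKM in wild-type marrow. Cyp27a1, a sterol hydroxylase gene, was at 5.65, 6.49 and 8.81 FPKM and at 4.65, 4.87 and 6.93 FPKM and did not pass.

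Several other receptors were highest in Cbx2-/- replicate 3. This held for 10 of the 19 tested receptors (52.6%), beside 26% of all tested genes. The summed level of all 44 receptors was 206, 235 and 261 FPKM in the Cbx2-/- libraries and 216, 204 and 206 FPKM in the wild-type libraries. The number of receptors at 1 FPKM or more was 17, 18 and 20 in Cbx2-/- libraries and 18, 19 and 17 in wild-type libraries.

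**Figure D3:**
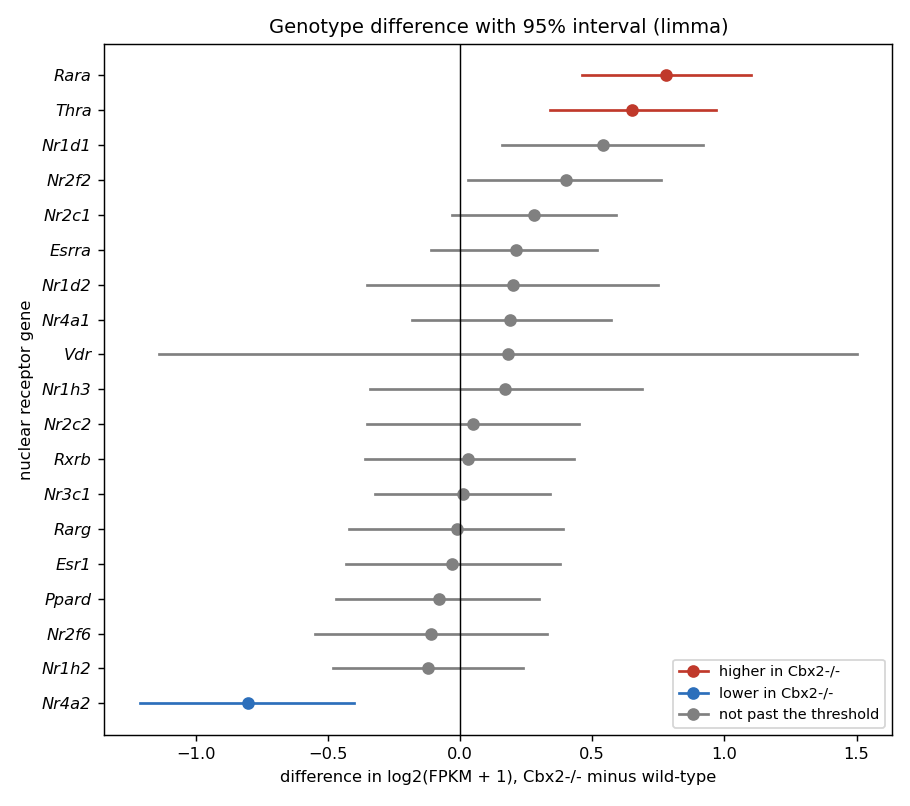
Difference in log2(FPKM + 1), Cbx2-/- minus wild-type, for the 19 tested receptor genes, with the 95% interval of the limma fit as a line. Rara and Thra lie above 0 and Nr4a2 below, and the interval of Vdr, from -1.14 to 1.5, is the widest.

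The liver X receptor genes did not pass. Nr1h2, which encodes LXR beta, was at 49.5, 59.4 and 50.2 FPKM in Cbx2-/- libraries and at 59.3, 52.5 and 61.6 FPKM in wild-type libraries, with an interval of -0.48 to 0.24 (log2) for the difference. Nr1h3, the LXR alpha gene of macrophages and fat cells, was at 6.82, 8.76 and 12.9 FPKM and at 7.06, 7.76 and 9.54 FPKM. Both genes had overlapping groups.

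Of 10 tested LXR target genes, 3 rose and 0 fell (all tested genes: 8.8% and 8.31%), with a median of 0.56 (all: 0.02). Apoe, a lipid carrier gene strongly expressed in macrophages, was at 1178, 1112 and 1322 FPKM in Cbx2-/- libraries and at 431, 503 and 522 FPKM in wild-type libraries (limma adjusted p = 0.00562). Abcg1, a cholesterol exporter gene, rose 2.67-fold (limma adjusted p = 0.00332), and both calls held in all 6 fits that left out 1 library. Lpl, the lipoprotein lipase gene, also a fat cell gene, rose 2.97-fold (limma adjusted p = 0.0115). That call was lost without wild-type replicate 1 or 3, when 2 of the list rose (7.07% and 7.57% of all tested genes called). Leaving out Cbx2-/- replicate 2 gave 4 higher and 1 lower, in a fit that called 16.9% of all tested genes. Smpdl3a (0.44) and Lpcat3 (-0.56, both log2 differences) missed the threshold. Macrophage markers summed to 1093 to 1367 FPKM in Cbx2-/- libraries and to 632 to 759.7 FPKM in wild-type libraries, and adipocyte markers to 2058 to 2663 and 209.9 to 415 FPKM. The part of these cells was not tested.

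PPAR delta, a fatty acid sensor encoded by Ppard, was at 6.16, 4.97 and 6.84 FPKM in Cbx2-/- marrow and at 7.18, 6.94 and 5.14 FPKM in wild-type marrow. The groups overlapped and the interval of the difference was -0.47 to 0.30 (log2). Ppara, the receptor gene of liver fat oxidation, was at 0.0107 to 0.207 FPKM. Pparg, in contrast, was 2.14-fold higher in Cbx2-/- marrow, with 19.3, 19.1 and 23.9 FPKM against 9.77, 9.74 and 9.64 FPKM (limma adjusted p = 0.0035). That call held in all 6 fits that left out 1 library. Rxra was 1.7-fold higher (limma adjusted p = 0.0131). The Rxra call was lost without Cbx2-/- replicate 1, wild-type replicate 1 or wild-type replicate 3, and when haemoglobin genes were left out.

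Of 12 tested PPAR alpha and delta targets, 2 rose and 0 fell (all tested genes: 8.8% and 8.31%), with a median of 0.49 (all: 0.02). Angptl4, an inhibitor of lipoprotein lipase, was at 52.9, 42.2 and 101 FPKM in Cbx2-/- libraries and at 12, 29.5 and 17.5 FPKM in wild-type libraries (limma adjusted p = 0.024). Its call was lost when haemoglobin genes, Cbx2-/- replicate 1, wild-type replicate 1 or wild-type replicate 3 were left out. Without wild-type replicate 1 the list had 0 higher genes, in a fit that called 7.07% of all tested genes. Leaving out Cbx2-/- replicate 3 gave 6 higher, in a fit that called 31.6% of all tested genes. Acaa2 and Plin2, at 70.4 ± 23 and 72.9 ± 16.4 FPKM in Cbx2-/- marrow and at 51.3 ± 5.06 and 46.2 ± 10.1 FPKM in wild-type marrow (SD, n = 3 each), did not pass. Pparg rose, as did 8 of 9 tested adipocyte markers, and their part in the rises of this list was not tested.

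Retinoid X receptors are the shared partners. Rxrb was at 29.5, 37.6 and 40.4 FPKM in Cbx2-/- libraries and at 38.8, 31.9 and 33.6 FPKM in wild-type libraries, with overlapping groups and an interval of -0.36 to 0.43 (log2). The ratio of Rxrb to Rxra was 2.58, 3.61 and 3.70 in Cbx2-/- libraries and 6.39, 4.29 and 5.84 in wild-type libraries (exact permutation test, two-sided, p = 0.1). This ratio reuses the Rxra values already called higher. Rxrg, the muscle and brain form, was at 0.199, 0.350 and 0.0554 FPKM in Cbx2-/- libraries and at most 0.0881 FPKM in wild-type libraries, highest in the libraries with muscle markers. All of these values are low, and the part of muscle in them was not tested.

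In the retinoid list, 1 of 7 tested genes rose and 1 fell (all tested genes: 8.8% and 8.31%), with a median of 0.13 (all: 0.02). Aldh1a1, an enzyme that makes retinoic acid, was at 28.3, 31.6 and 26.7 FPKM in Cbx2-/- libraries and at 50.0, 62.7 and 54.8 FPKM in wild-type libraries (limma adjusted p = 0.00752), a fall called in all 6 fits that left out 1 library. Rbp4, the retinol carrier gene, also expressed by fat cells, was at 4.28, 15.9 and 7.18 FPKM against 0.932, 2.24 and 1.45 FPKM (limma adjusted p = 0.0178, lost without wild-type replicate 1 or 3). Dhrs3, a reductase gene induced by retinoic acid, had separate groups at 31.0 ± 0.811 and 22.4 ± 1.1 FPKM (SD, n = 3 each) but a limma adjusted p of 0.0502. Tgm2, another target, did not pass, at 33.8 ± 2.44 and 28.2 ± 1.48 FPKM.

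Only 3 of the 10 thyroid hormone genes were tested. Slc16a10, a thyroid hormone and amino acid transporter gene, fell 1.76-fold, to 16.6 ± 5.12 FPKM in Cbx2-/- marrow, against 29.2 ± 1.54 FPKM in wild-type marrow (SD, n = 3 each, limma adjusted p = 0.0335), a call lost without Cbx2-/- replicate 1 and without each wild-type library. The target genes Thrsp (0.77) and Klf9 (0.56, both log2 differences) missed the threshold.

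Steroid receptors were led by Nr3c1, the glucocorticoid receptor gene, at 8.98, 8.93 and 11.4 FPKM in Cbx2-/- marrow and at 9.61, 10.4 and 9.02 FPKM in wild-type marrow. Its groups overlapped, and the difference of 0.01 had an interval of -0.32 to 0.34 (log2). Of 11 tested glucocorticoid genes, 2 rose and 0 fell (all tested genes: 8.8% and 8.31%), with a median of 0.73 (all: 0.02). Sgk1, a kinase gene, was at 27.4, 22.4 and 42.4 FPKM in Cbx2-/- libraries and at 13.7, 13.6 and 13.8 FPKM in wild-type libraries (limma adjusted p = 0.0168), and Cebpd, a transcription factor gene, rose 1.7-fold (limma adjusted p = 0.0198). Both calls were lost when any 1 wild-type library was left out, when 0 genes of the list rose (7.07% to 7.57% of all tested genes called). That of Sgk1 was also lost when haemoglobin genes were left out. The list had 4 higher genes without Cbx2-/- replicate 2 (16.9% of all tested genes called) and 5 without replicate 3 (31.6%). The metallothionein genes Mt1 (0.65) and Mt2 (0.79, both log2 differences) missed the threshold.

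The mineralocorticoid receptor gene Nr3c2 was under the filter, at 0.210, 0.187 and 0.324 FPKM in Cbx2-/- libraries and at 0.0574, 0.0847 and 0.0779 FPKM in wild-type libraries. These groups did not overlap. Esr1, the oestrogen receptor alpha gene, was at 0.792, 1.19 and 1.41 FPKM in Cbx2-/- libraries and at 1.20, 1.46 and 0.852 FPKM in wild-type libraries, just inside the filter. The beta receptor gene Esr2 had 0.0481 FPKM in Cbx2-/- replicate 1 and 0.0266 FPKM in replicate 3, was listed at 0 in replicate 2, and was at 0.115, 0.0945 and 0.117 FPKM in wild-type libraries. Pgr, the progesterone receptor gene, was at most 0.0189 FPKM.

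Among the oestrogen related receptors, orphans that act on mitochondrial genes, Esrra was expressed. It was at 16.2, 16.1 and 14.0 FPKM in Cbx2-/- libraries and at 12.7, 12.4 and 14.6 FPKM in wild-type libraries, overlapping through replicate 3 of both groups (limma adjusted p = 0.342). Of the 10 tested target genes of these receptors, 0 passed in limma, where 17.1% of all tested genes did. Among these 10, Vegfa alone had an unadjusted limma p under 0.05 (0.0199). Without Cbx2-/- replicate 3, 1 rose, in a fit that called 31.6% of all tested genes. Atp5b was at 615, 642 and 371 FPKM in Cbx2-/- libraries and at 664, 570.4 and 568 FPKM in wild-type libraries, and Cox5b at 476, 548 and 247 FPKM and at 447, 424 and 484 FPKM, both lowest in Cbx2-/- replicate 3. Esrrb, under the filter, was at 0.541, 0.292 and 0.140 FPKM in Cbx2-/- libraries and at 0.0682, 0.0256 and 0.0188 FPKM in wild-type libraries, while Esrrg was at most 0.0132 FPKM.

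The COUP-TF group holds orphan receptors of vessels and stroma. Nr2f2, a regulator of venous identity, was at 1.43, 1.52 and 2.11 FPKM in Cbx2-/- libraries and at 0.940, 1.28 and 0.890 FPKM in wild-type libraries. The groups did not overlap, but the difference of 0.40 ± 0.16 (log2, SE) did not pass (limma adjusted p = 0.129). Nr2f1, under the filter, was at 0.656, 0.557 and 1.57 FPKM and at 0.454, 0.595 and 0.248 FPKM, so Cbx2-/- replicate 3 alone reached 1 FPKM. Nr2f6, an orphan receptor known to restrain immune genes in T cells, was at 13.1, 15.5 and 9.44 FPKM in Cbx2-/- libraries and at 15.4, 12.7 and 12.6 FPKM in wild-type libraries, with overlapping groups.

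The testicular receptors Nr2c1 and Nr2c2, which repress globin genes of early life in red cells, did not pass. Nr2c1 was at 2.17, 1.91 and 1.89 FPKM in Cbx2-/- marrow and at 1.41, 1.69 and 1.31 FPKM in wild-type marrow, with no overlap (limma adjusted p = 0.197). Nr2c2 was at 2.29, 2.50 and 3.66 FPKM and at 3.13, 2.41 and 2.43 FPKM, with overlap. In all, 6 of the 19 tested receptors had groups that did not overlap (31.6%, 5 of them higher in Cbx2-/- marrow), below the 39.6% of all tested genes.

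The remaining receptors were low. Of the 25 under the filter, 20 stayed under 0.5 FPKM in every library, 2 (Nr1i2 and Nr0b1) were listed at 0 in all libraries, and 2 (Nr2f1 and Nr4a3) reached 1 FPKM in a library, Cbx2-/- replicate 3 in both cases. Receptors of liver, gut, gonad and brain were among the lowest: Hnf4a was at most 0.281 FPKM, and Hnf4g, Nr1h4, Nr1i3, Nr2e1, Nr2e3 and Nr5a1 stayed under 0.1 FPKM. Of the 23 with a value above 0, 7 had groups that did not overlap (30.4%), where 19.9% of all such genes did. Rora, Nr0b2, Nr6a1, Esrrb, Nr3c2 and Nr5a2 were higher and Esr2 lower in Cbx2-/- marrow. In a fit with no filter these 7 did not pass, with limma adjusted p of 0.052 to 0.19, and 3 of the 42 receptors in that fit were called (7.14%), where 9.9% of all genes were.

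**Figure D4:**
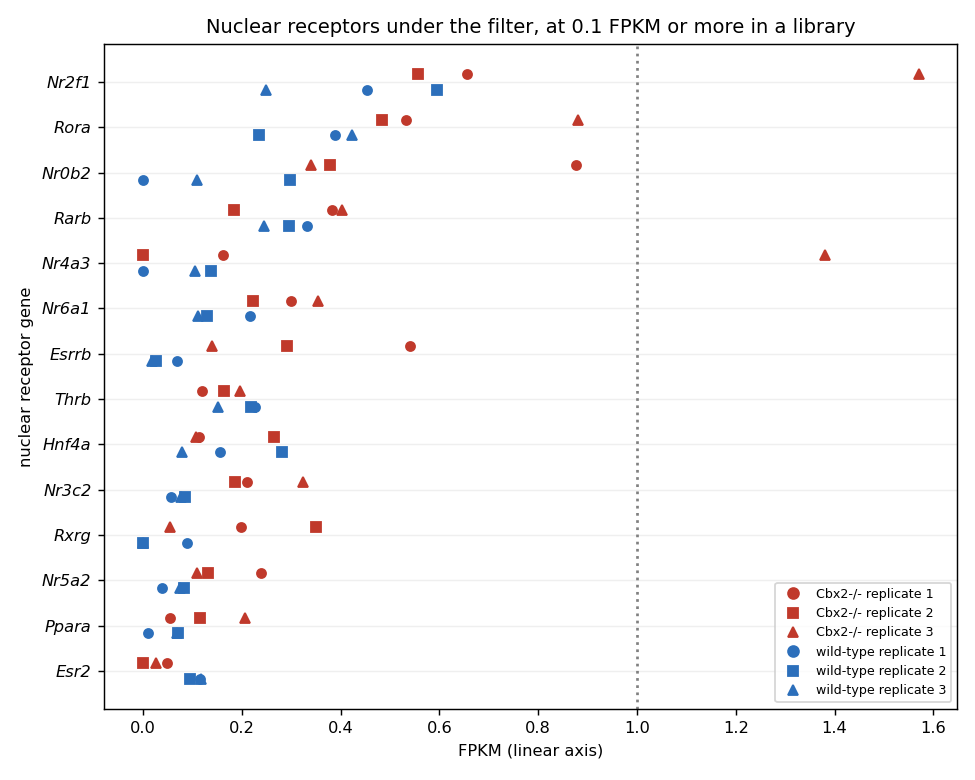
FPKM on a linear axis of the 14 receptor genes that were under the filter and reached 0.1 FPKM in a library, with Cbx2-/- libraries in red above wild-type libraries in blue and a dotted line at 1 FPKM. The other 11 stayed below 0.1 FPKM, and the points past 1 FPKM are Nr2f1 and Nr4a3 in Cbx2-/- replicate 3.

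Nr0b2, which encodes the repressor SHP, lacks a DNA-binding domain. It was at 0.876, 0.378 and 0.341 FPKM in Cbx2-/- libraries, was listed at 0 in wild-type replicate 1 and was at 0.297 and 0.110 FPKM in the other wild-type libraries. Nr6a1, an orphan receptor gene of germ cells and early embryos, was at 0.299, 0.222 and 0.355 FPKM in Cbx2-/- libraries and at 0.216, 0.130 and 0.112 FPKM in wild-type libraries. Nr5a2, the liver receptor homolog gene, was at 0.239, 0.131 and 0.110 FPKM and at 0.0375, 0.0823 and 0.0756 FPKM.

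Coregulators are the proteins through which receptors activate or silence genes. Of the 17 tested, 0 rose and 1 fell (all tested genes: 8.8% and 8.31%), with a median of 0.20 (all: 0.02). Gps2, a subunit of the NCoR corepressor complex, was at 44.5, 56.3 and 39.7 FPKM in Cbx2-/- libraries and at 72.0, 70.0 and 70.4 FPKM in wild-type libraries (limma adjusted p = 0.0483). That call was lost without Cbx2-/- replicate 1 and without each wild-type library, when 0 coregulators passed (7.07% to 9.11% of all tested genes called). Without Cbx2-/- replicate 2, 2 rose and 1 fell (16.9% of all tested genes called). Without Cbx2-/- replicate 3, 2 rose and 2 fell (31.6%). Prmt1 and Ncoa4, the most abundant that did not pass, were at 119.8 ± 48.4 and 79 ± 25 FPKM in Cbx2-/- marrow and at 96.6 ± 17.9 and 86.1 ± 17.9 FPKM in wild-type marrow (SD, n = 3 each).

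**Figure D5:**
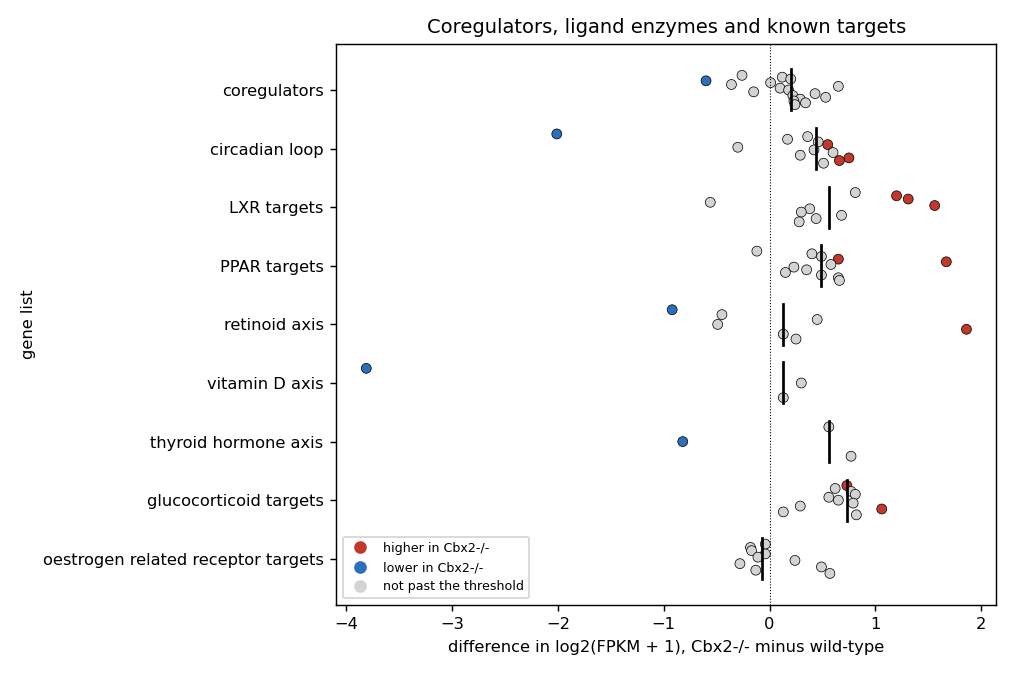
Difference in log2(FPKM + 1), Cbx2-/- minus wild-type, for each tested gene of 9 lists of coregulators, ligand enzymes and known receptor targets, with the list median as a black line. Red genes were higher, blue genes lower and grey genes not past the threshold, and the points furthest left are Bglap at -3.81 and Arntl at -2.01.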

How the data were processed

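Bone marrow RNA of 3 Cbx2-/- and 3 wild-type mice was read as single-end reads from stranded poly(A) libraries, per the labels' protocols. FastQC 0.11.5, TopHat2 2.1.0, Cufflinks 2.2.1 and, as build, mm10 are listed, per the submitters' processing notes, without roles or settings. The authors deposited FPKM values per gene and library. Read depth is unknown from these values, so no counting interval is given. The confidence limits in the deposited table equal each other in every row and were not used.

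Values were analysed as log2(FPKM + 1). Tested were the 12006 of 22838 genes that reached 1 FPKM in 3 or more of 6 libraries, by a two-sided limma fit (version 3.58.1, R 4.3.3, trended eBayes, neither block nor covariate) with p-values adjusted over all of them by Benjamini-Hochberg, threshold 0.05. The fit was tested on simulated data. Of the calls, 1057 were higher and 998 lower in Cbx2-/- marrow, and 598 and 985 when haemoglobin genes were left out and the rest rescaled. Folds are ratios of mean FPKM. Limma p-values set each difference against the spread between these samples, a spread that the fit partly shares over genes.

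The receptor genes, the lists of related genes and the markers were chosen with earlier results of these data known. Called receptors, and other receptors with a mean of at least 5 FPKM, with separate groups or closely related to a called one, are given per library. Up to 4 genes past the threshold and 2 that did not pass are named per list, except 1 PPAR target that is not reported here, and genes outside this rule (Cyp24a1, S100g, Vegfa, the chromosome 11 neighbours and some low receptors) were chosen after their values were seen. Per1, Klf9 and Pdk4 stand in more than 1 list. Positions are from GENCODE vM21, and the locus of each of the 44 genes overlapped its GENCODE gene. Figures were drawn with matplotlib 3.10.9.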

Additional observations from a re-analysis of the deposited data

How the results depend on the processing

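Of 361 receptor values under 19 alternatives, 314 kept direction and side of the threshold, 10 lost the call, 10 gained one and 28 changed sign, with 1 (Vdr without Cbx2-/- replicate 3) counted under both of these; 8 receptors never changed sign. The cause was not tested in any of these. With haemoglobin genes left out and the rest rescaled, 598 genes rose and 985 fell (37.8% of calls higher, against 51.4%), 1 receptor rose, Nr3c1 was -0.0024, and 1 PPAR target, 1 circadian gene and 1 of Pparg and Rxra passed. With array weights, 3278 genes rose and 2684 fell, 5 receptors rose, and log2 differences were -0.09 (Nr1d2), -0.15 (Nr1h3), -0.14 (Nr2c2), -0.09 (Nr3c1), -0.01 (Nr4a1), -0.19 (Rxrb) and -0.34 (Vdr). The genes past the threshold there were 8 LXR, 8 PPAR, 10 circadian, 7 coregulator, 7 glucocorticoid, 2 oestrogen related receptor, 6 retinoid and 2 thyroid. With Cbx2-/- replicates 1 and 2 left out, 2047 genes rose and 2714 fell, 7 receptors rose and 0 fell, Esr1 was 0.16, Ppard 0.09 and Rarg 0.19, and 8 LXR, 5 PPAR, 8 circadian, 11 coregulator, 8 glucocorticoid, 8 oestrogen related receptor and 2 thyroid genes passed. Upper quartile scaling gave Rarg 0.01 and 2 circadian genes (16.6% of all tested genes called, against 17.1% in the main fit). Quantile normalization gave 4 glucocorticoid genes (18.1%), and robust eBayes (17.2%) or a filter on the mean (16.5%) gave 0 coregulators. No filter gave 1 PPAR, 1 circadian, 0 coregulator and 2 thyroid genes (9.9% of all genes called). Sex as a covariate gave 2 circadian, 0 coregulator and 0 thyroid genes (13% of all tested genes called). It was read from Y-linked transcripts present in 1 of 3 libraries of each group, replicate 1 in both.

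With the replicate number as a block, 634 genes rose and 734 fell, 1 receptor rose (Thra 0.65, limma adjusted p = 0.057), and 1 circadian, 0 coregulator and 1 glucocorticoid genes passed. Same-numbered libraries deviated with r = 0.194, -0.179 and -0.103, within the range of -0.26 to 0.274 for libraries with different numbers. They also matched in chromosomal sex, read from Y-linked transcripts. Whether they share a litter, day or batch cannot be told from these values.

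Leaving out 1 library at a time gave 367 to 2069 genes higher and 475 to 1719 lower, and 0 to 3 receptors higher and 0 to 2 lower. Differences ran from -0.13 to 0.09 (Esr1), -0.09 to 0.36 (Nr1d2), -0.05 to 0.36 (Nr1h3), -0.10 to 0.15 (Nr2c2), -0.26 to 0.07 (Nr2f6), -0.10 to 0.06 (Nr3c1), -0.22 to 0.02 (Ppard), -0.13 to 0.12 (Rarg), -0.06 to 0.16 (Rxrb) and -0.58 to 0.69 (Vdr). Genes past the threshold ran from 2 to 5 (LXR), 0 to 6 (PPAR), 1 to 6 (circadian), 0 to 4 (coregulators), 0 to 5 (glucocorticoid), 0 to 1 (oestrogen related receptor), 1 to 2 (Pparg and Rxra), 1 to 3 (retinoid) and 0 to 2 (thyroid). The vitamin D list kept a count of 1 under all 19 alternatives. With other definitions of expressed, 15 to 21 receptors counted.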
